A study of Danio rerio with 6 samples.

Results

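Cytochrome P450 genes were taken as the genes whose platform symbol names a single gene and starts with cyp followed by a digit. The array measured 75 of them, in 16 families and 35 subfamilies, through 79 of its rows, among 19260 named genes in all. The samples were single brains from adult fish of the Tübingen strain of Danio rerio, aged about 1 year and of unspecified sex, each put on an Affymetrix Zebrafish Gene 1.0 ST array. The hypoxia group held 3 fish kept for 3 h in water from which nitrogen bubbling had removed oxygen, down to 1.20 ± 0.6 mg/l. The normoxia group held 3 fish at an ambient 6.6 ± 0.45 mg/l (both errors of unstated kind). Within each group the fish are numbered 1 to 3. The neuronal marker snap25a was bright in every brain, with 12.62, 12.93 and 13.08 in hypoxia, against 13.25, 12.87 and 12.74 in normoxia (log2). Each brain is the RNA of many cell types, so fewer cells of a type and less RNA per cell cannot be told apart.

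Cytochromes P450 are haem enzymes that bind molecular oxygen and put 1 of its atoms into a substrate. Enzymes in the endoplasmic reticulum receive their electrons through cytochrome P450 reductase and cytochrome b5, and those in mitochondria through ferredoxin. Some families make or remove defined signals, such as steroids, oxysterols, retinoic acid and vitamin D, and others oxidise fatty acids and foreign compounds. In the brain of teleost fish the best known member is cyp19a1b, the brain aromatase, which turns androgens into oestrogens and is made in radial glia, the stem and support cells of the adult fish brain.

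cyp19a1b gave by far the strongest P450 signal in these brains, and most other members were dim. All levels below are log2 RMA signals, and the order is one of array signals, because the signal of a gene also depends on its probes. The mean signal of the 75 members ran from 3.61 for cyp2j20 to 11.9 for cyp19a1b, with a median of 6.46 against 7.40 for all genes. Of the members, 41 (54.7%) lay below the 25th percentile of all genes and only 4 above the 75th percentile, namely cyp19a1b, cyp4t8, cyp51 and cyp27a3. As a guide to dim signals, 118 odorant receptor genes, whose place of use is the nose, had a median of 5.47 and a highest mean of 7.89, and 5 members were above that highest mean.

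**Figure D1:**
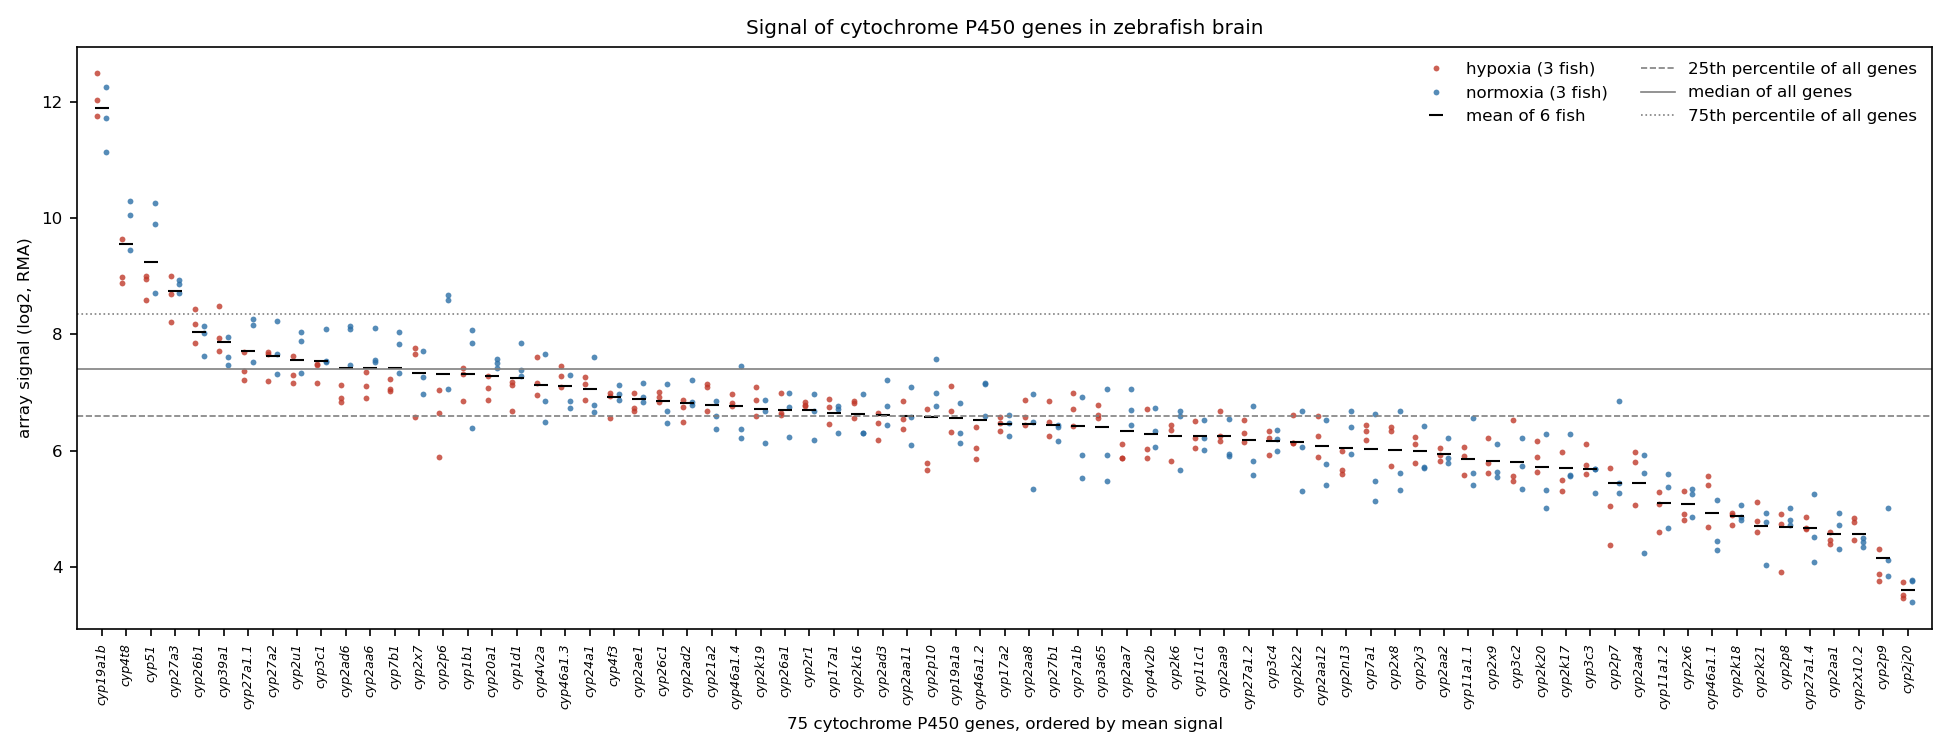
Array signal (log2, vertical axis) of the 75 P450 genes, ordered by mean signal, with 1 point per fish, a dash for the mean of 6 fish and lines for percentiles of all genes. cyp19a1b stands alone at 11.9, and 41 members lie below the 25th percentile line at 6.59.

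cyp19a1b had values of 12.03, 11.75 and 12.49 in hypoxia 1 to 3 and of 11.72, 11.13 and 12.25 in normoxia 1 to 3. It was the brightest member in all 6 fish, 1.42 to 3.51 log2 units above the next, and 64 of the 19260 genes had a higher mean. Its paralogue cyp19a1a, the aromatase of the gonad, had 7.12, 6.68 and 6.32 in hypoxia, against 6.13, 6.82 and 6.30 in normoxia. Its mean of 6.56 lies below the 90th percentile of the odorant receptors (6.70), so a level above background is not shown for it, and the probes of the paralogues differ.

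After cyp19a1b came cyp4t8 (mean 9.55), cyp51 (9.24), cyp27a3 (8.74), cyp26b1 (8.05), cyp39a1 (7.86), cyp27a1.1 (7.71) and cyp27a2 (7.63). Then followed cyp2u1 (7.56), cyp3c1 (7.55), cyp2ad6 (7.43) and cyp2aa6 (7.43). Few of these neighbours can be put in order. Of the 74 neighbouring pairs, 2 had a gap larger than the sum of their within-group SDs, namely cyp19a1b over cyp4t8 (gap 2.34) and cyp27a3 over cyp26b1 (gap 0.70, higher in 6 of 6 fish). Between cyp4t8 and cyp51 the gap was 0.31, with cyp4t8 higher in 5 of 6 fish, and from cyp26b1 down no 2 neighbours differed beyond their spread. Any single array held 7 to 11 of the 12 brightest members in its own top 12.

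The comparison of hypoxia with normoxia asks which of these transcripts differ after 3 h of low oxygen. No P450 gene passed the threshold of an adjusted p under 0.05 (limma, Benjamini-Hochberg over all 19260 genes), where 0.00519% of all genes did, and the smallest adjusted p of a member was 0.72. At an unadjusted p under 0.05 there were 12 members, or 16.0%, against 6.66% of all genes. All 12 had lower means in hypoxia, a direction in which 5.76% of all genes reached that p, against 0.903% with higher means. This count rests on few arrays: it was 6 without hypoxia 1, 5 without normoxia 1, and 27 without normoxia 2, of which 14 were lower and 13 higher. The shares of all genes at that p were then 2.63%, 4.03% and 24.6%.

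Neither direction prevailed among the members as a whole. Means were lower in hypoxia for 36, higher for 38 and equal for 1, cyp2aa11, where 61.0% of all genes had a lower mean. The median log2 difference, hypoxia minus normoxia, was 0.0033 for the P450 genes and -0.08 for all genes. Shifting the arrays to equal medians moved the median of all genes to 0.06 and that of P450 genes to 0.14, and quantile normalization of the gene table gave 0.01 for all genes and -0.03 for P450 genes. In 10 members (13.3%) the hypoxia and normoxia values did not overlap, close to the 11.3% of all genes. Those 10 were cyp2p6, cyp2p10, cyp2ad6, cyp46a1.2, cyp2aa7, cyp7b1, cyp2aa6, cyp1d1, cyp20a1 and cyp3c1, all lower in hypoxia, where 9.02% of all genes were lower and 2.33% higher without overlap. Among them, cyp2p10, cyp46a1.2 and cyp2aa7 had mean signals of 6.59, 6.53 and 6.34, below the odorant receptor 90th percentile of 6.70. These counts are for the deposited scale. The nearest fish of the 2 groups were 0.01 (cyp2p6) to 0.34 (cyp2ad6) apart in these 10 genes. The array medians over all genes ran from 7.32 (hypoxia 2) to 7.6 (normoxia 1), so some of the separations depend on the scaling. The number without overlap was 18 without hypoxia 2, 16 without normoxia 1 and 35 without normoxia 2, where 17.3%, 17.5% and 43.5% of all genes did not overlap. A difference of at least 0.5 in size was found in 13 members with lower means (17.3%, against 8.06% of all genes) and in 4 with higher means (5.33%, against 2.38%).

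With all genes split into 4 equal groups by signal, the hypoxia mean was lower for 34.7%, 55.8%, 76.0% and 77.6% of them, dimmest group first. Among P450 genes it was lower for 18 of 41 (43.9%), 8 of 21 (38.1%), 7 of 9 (77.8%) and 3 of 4. The share thus did not increase between the 2 dimmer groups, which hold most members. The spread of the arrays also differed, with an SD over all genes of 1.25 to 1.42 in hypoxia and of 1.602, 1.27 and 1.47 in normoxia 1 to 3. Normoxia 1, with the widest spread, was the lowest array for 29 members (38.7%, against 19.9% of all genes). In the dimmest group these shares were 46.3% of members and 44.9% of all genes, and in the next group 47.6% and 25.8%. In the 2 brighter groups normoxia 1 was lowest for 0 members, against 6.12% and 2.6% of all genes. The part of array spread in the differences of dim members was not tested.

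**Figure D2:**
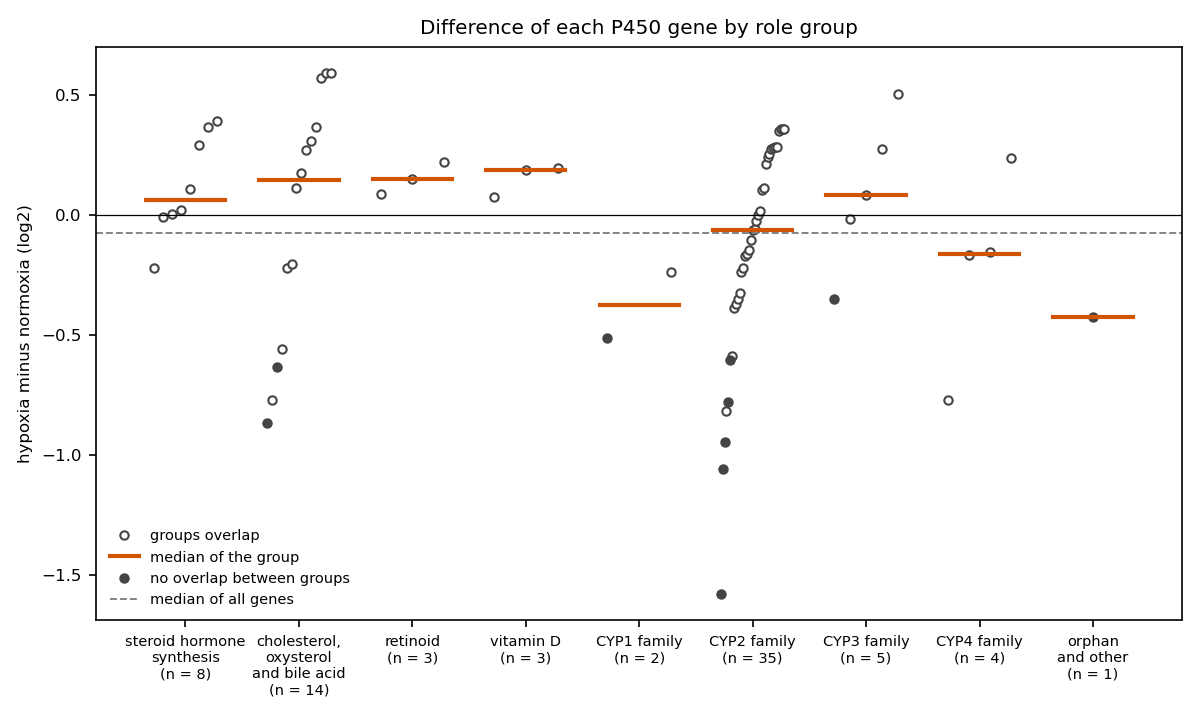
Hypoxia minus normoxia (log2, vertical axis) for each P450 gene, in 9 role groups, with filled points for genes whose 3 hypoxia and 3 normoxia values do not overlap. The 10 filled points all lie below 0, the lowest being cyp2p6 at -1.58, and the medians of the role groups run from -0.43 to 0.19.

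The 8 genes of steroid hormone synthesis showed small differences. Of these, 2 had a lower and 6 a higher mean in hypoxia, none had an unadjusted p under 0.05, and their median difference was 0.06. cyp19a1b averaged 12.1 ± 0.37 in hypoxia and 11.7 ± 0.56 in normoxia (SD, n = 3 fish each), a log2 difference of 0.39 (95% interval -0.30 to 1.08, limma adjusted p = 0.766). The groups overlap, and normoxia 3 lies above hypoxia 1 and hypoxia 2. The difference was 0.11 without normoxia 2 and 0.67 without normoxia 3. It was 0.53 with equal array medians and 0.59 after quantile normalization (limma adjusted p = 0.722 and 0.645).

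The fish with the highest cyp19a1b in each group, hypoxia 3 and normoxia 3, also had the most pituitary hormone RNA. gh1, growth hormone, was 6.72, 9.39 and 13.19 in hypoxia, against 6.00, 7.90 and 12.83 in normoxia. Of the 9 pituitary markers measured, 5 had a lower and 4 a higher mean in hypoxia, and their summed signal ran from 9.93 to 14.0 in hypoxia and from 9.55 to 14.2 in normoxia (log2). Between fish 1 and 2 the order was opposite in both groups. Summed pituitary signal was 9.93 and 10.67 in hypoxia 1 and 2, where cyp19a1b was 12.03 and 11.75. In normoxia 1 and 2 it was 9.55 and 10.32, where cyp19a1b was 11.72 and 11.13. With hypoxia 3 and normoxia 3 both left out, a setting chosen once the values were known, the difference of cyp19a1b was 0.47. Markers of radial glia, the cells that make cyp19a1b, had lower means in hypoxia for 9 of 9 genes, and their summed signal ran from 13.2 to 13.6 in hypoxia and from 13.4 to 14.4 in normoxia (log2). Their median signal was 9.85, a level at which the hypoxia mean was lower in 77.6% of all genes. With equal array medians 7 of the 9 and with quantile-normalized gene values 8 of the 9 had lower means, and their median of -0.53 was -0.18 without hypoxia 3 and normoxia 3. In other cell types, lower means were found for 8 of 8 endothelial, 5 of 6 oligodendrocyte and 5 of 9 neuronal markers. The endothelial count was 6 of 8 with equal array medians and 7 of 8 after quantile normalization. The median signal of the endothelial markers was 7.68, a level at which the hypoxia mean was lower in 76.0% of all genes. Of the radial glial markers, gfap was 8.62, 9.01 and 7.81 in hypoxia, against 9.55, 8.44 and 9.87 in normoxia. The brightest, glula, was 11.66, 12.36 and 12.01 in hypoxia, against 12.10, 11.87 and 12.14 in normoxia. The glula difference of -0.03 was 0.11 with equal array medians and 0.22 after quantile normalization. s100b, the next brightest, differed by -0.73. The part of pituitary or radial glial RNA in the level of cyp19a1b was not tested.

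Oestrogen receptor genes were measured as partners of the aromatases. esr1, a nuclear receptor for oestradiol, was 7.20, 6.92 and 7.43 in hypoxia against 6.83, 6.91 and 6.81 in normoxia. Its groups were only 0.01 apart, between hypoxia 2 and normoxia 2, and its adjusted p was 0.734 (limma). esr2a had a log2 difference of 0.22 and esr2b one of -0.05, with overlapping groups.

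The P450 genes of steroid synthesis other than cyp19a1b were dim, with cyp19a1a described above. The side-chain cleavage genes cyp11a1.1 and cyp11a1.2, which start steroid synthesis from cholesterol, had mean signals of 5.86 and 5.10 and differences of -0.01 and -0.22. cyp17a1 (6.65) and cyp17a2 (6.46), which carry 17-hydroxylase activity, differed by 0.11 and 0.02, and cyp11c1 (6.25), the 11-beta-hydroxylase of cortisol synthesis, by 0.0033. cyp21a2, the 21-hydroxylase, was 7.15, 7.09 and 6.68 in hypoxia, against 6.37, 6.85 and 6.60 in normoxia, a difference of 0.37 (limma adjusted p = 0.736). Hypoxia 3 lies below normoxia 2, so these groups overlap.

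Among the 14 genes of cholesterol, oxysterol and bile acid metabolism, 6 had lower and 8 higher means in hypoxia, with a median of 0.14, and 3 had an unadjusted p under 0.05, as did 6.66% of all genes. cyp51 encodes lanosterol 14-alpha-demethylase, the P450 of cholesterol synthesis. It was 8.60, 9.01 and 8.95 in hypoxia, against 9.90, 8.71 and 10.26 in normoxia, a difference of -0.77 (limma adjusted p = 0.72). Normoxia 2 lies within the hypoxia range and the other normoxia fish above it, so that the difference was -1.23 when normoxia 2 was left out and -0.45 when normoxia 3 was.

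The smallest p among the partners in cholesterol synthesis belonged to later steps, and these genes were named for their p. msmo1, a sterol C4-methyl oxidase, was 9.15, 9.27 and 9.0 in hypoxia, against 10.18, 8.97 and 10.62 in normoxia. sc5d, the sterol C5-desaturase, was 7.84, 7.85 and 7.81 in hypoxia, against 8.90, 7.74 and 8.88 in normoxia. In these 2 genes, as in cyp51, normoxia 1 and 3 were the 2 highest fish and normoxia 2 lay among or below the hypoxia fish. hsd17b7, next by p and dim, was 5.915, 5.845 and 5.84 in hypoxia, against 6.345, 5.95 and 6.47 in normoxia. There normoxia 2 lay above all hypoxia fish. The order of fish seen in cyp51 was also found in the partners dhcr7, fdft1, fdps, sqlea and lbr. Outside the pathway it was found in the microglial marker mpeg1.1 and the haem synthesis gene alas1, among others. The remaining partners differed. For example, tm7sf2, a sterol reductase gene, was higher in all hypoxia fish (difference 0.20). ebp, a sterol isomerase gene, was highest in normoxia 2 (difference -0.18). Of the 24 measured partners in cholesterol synthesis, 15 had lower and 8 higher means in hypoxia and none an unadjusted p under 0.05, with a median of -0.14 that was 0.0017 with equal array medians and -0.19 after quantile normalization. hmgcra, the rate-limiting reductase of the pathway, differed by 0.09.

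Genes of the cyp46a1 group differed among themselves. In mammals CYP46A1 is the neuronal cholesterol 24-hydroxylase, the main way for the brain to remove cholesterol. cyp46a1.2 was 6.41, 6.04 and 5.85 in hypoxia, against 7.16, 7.15 and 6.59 in normoxia, with all hypoxia fish below all normoxia fish and a difference of -0.87 (SE 0.233, limma adjusted p = 0.72). Its mean signal of 6.53 was dim, below the odorant receptor 90th percentile of 6.70. cyp46a1.1 was 5.41, 5.56 and 4.69 in hypoxia, against 4.45, 5.15 and 4.29 in normoxia, a difference of 0.59 (adjusted p = 0.72) at a dim signal. cyp46a1.3 differed by 0.31 and cyp46a1.4 by 0.17, both with overlapping groups. 3 of the 4, without cyp46a1.1, are neighbours in the RefSeq gene order, and how far the probes separate such copies was not tested.

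Other oxysterol enzymes also varied in sign. cyp7b1, in mammals an oxysterol and neurosteroid 7-alpha-hydroxylase, was 7.23, 7.06 and 7.03 in hypoxia, against 8.05, 7.83 and 7.34 in normoxia, without overlap, a difference of -0.63 (limma adjusted p = 0.72). cyp39a1, in mammals a 24-hydroxycholesterol 7-alpha-hydroxylase, was 7.71, 8.49 and 7.93 in hypoxia, against 7.95, 7.62 and 7.47 in normoxia, a difference of 0.36 (adjusted p = 0.75). Its hypoxia 2 was the highest fish, and the other 2 hypoxia fish lay within the normoxia range. Among the sterol 27-hydroxylase genes, cyp27a1.1 had 7.22, 7.69 and 7.37 in hypoxia, against 8.17, 7.53 and 8.26 in normoxia, a difference of -0.56 (adjusted p = 0.72), and normoxia 2 lay among the hypoxia fish. cyp27a3 was 8.21, 9.01 and 8.70 in hypoxia, against 8.72, 8.87 and 8.94 in normoxia (difference -0.20), and cyp27a2 was 7.20, 7.66 and 7.69 in hypoxia, against 8.23, 7.32 and 7.67 in normoxia (difference -0.22). Both overlap, and neither kept its sign with every array left out in turn.

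The bile acid genes cyp7a1 and cyp7a1b, whose product is the rate-limiting enzyme of bile acid synthesis in liver, were dim. cyp7a1 was 6.45, 6.33 and 6.18 in hypoxia, against 5.14, 6.63 and 5.48 in normoxia, and cyp7a1b was 7.00, 6.71 and 6.43 in hypoxia, against 5.53, 6.92 and 5.92 in normoxia. In both, normoxia 1 was the lowest fish and normoxia 2 among the highest. Their differences of 0.57 and 0.59 had adjusted p of 0.736 and 0.733 (limma). They were 0.265 and 0.29 without normoxia 1, and 1.01 and 0.99 without normoxia 2. Of the 8 liver markers measured, 7 had higher means in hypoxia. The summed signal of the 8 ran from 9.87 to 10.03 in hypoxia and from 9.71 to 9.98 in normoxia (log2). Their median signal was 6.25, a level at which the hypoxia mean was lower in only 34.7% of all genes. The brightest, cp (mean 8.74), was the 1 marker with a lower mean (difference -0.0033). The part of liver RNA in the differences of cyp7a1 and cyp7a1b was not tested.

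The 6 genes of retinoid and vitamin D metabolism all had higher means in hypoxia, and none had an unadjusted p under 0.05. The median signals of the retinoid and vitamin D genes were 6.85 and 6.70, a level at which the hypoxia mean was lower in 55.8% of all genes. cyp26b1, which breaks down retinoic acid, was 7.85, 8.18 and 8.44 in hypoxia, against 8.15, 7.63 and 8.03 in normoxia, a difference of 0.22 (95% interval -0.29 to 0.73). It was 0.07 without normoxia 2 and 0.08 without hypoxia 3, and 0.41 after quantile normalization, where its unadjusted p was 0.0305 and its adjusted p 0.639 (limma). cyp26c1 differed by 0.15 and cyp26a1 by 0.09. Among the vitamin D genes, the 25-hydroxylase gene cyp2r1 differed by 0.19 and the 1-alpha-hydroxylase gene cyp27b1 by 0.19, with 6.49, 6.25 and 6.86 in hypoxia, against 6.45, 6.17 and 6.40 in normoxia. The 24-hydroxylase gene cyp24a1 was 7.27, 6.87 and 7.15 in hypoxia, against 6.78, 7.62 and 6.67 in normoxia (difference 0.07), with both extremes among normoxia fish. The median of the 3 vitamin D genes was 0.19, and -0.03 without normoxia 1. Signs turned with 1 array left out for cyp24a1 (-0.10 without normoxia 3), cyp26a1 (-0.125 without normoxia 3) and cyp2r1 (-0.03 without normoxia 1).

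On the synthetic side of retinoic acid, aldh1a2 was 7.56, 7.72 and 7.54 in hypoxia, against 8.37, 8.12 and 9.08 in normoxia, without overlap. Its product makes retinoic acid from retinal, and its log2 difference was -0.92 (limma adjusted p = 0.72). rdh10a, a retinol dehydrogenase gene of the preceding step, was 8.05, 8.06 and 8.06 in hypoxia, against 8.36, 8.33 and 8.41 in normoxia, also without overlap (difference -0.31). Of the 17 retinoid partners measured, 10 had lower and 7 higher means, with a median of -0.10 that was 0.04 with equal array medians and 0.02 after quantile normalization.

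Both CYP1 genes with a row of their own had lower means in hypoxia, while the row shared by cyp1a and mpx differed by 0.44. The CYP1 family holds the enzymes known for induction by dioxin-type compounds through the aryl hydrocarbon receptor, whose partner ARNT also serves the hypoxia-inducible factors. cyp1d1 was 6.68, 7.18 and 7.13 in hypoxia, against 7.85, 7.29 and 7.39 in normoxia, a difference of -0.51 (limma adjusted p = 0.72) without overlap. cyp1b1 was 6.86, 7.32 and 7.42 in hypoxia, against 8.07, 6.39 and 7.85 in normoxia, so that both the highest and the lowest fish were normoxic. Its difference of -0.24 became 0.08 without normoxia 1 and -0.76 without normoxia 2. In the receptor pathway, 4 of 9 measured genes had lower and 5 higher means, with a median of 0.04. ahr2, the main dioxin receptor gene of zebrafish, differed by -0.0033, and nqo1, a quinone reductase gene under this receptor and Nrf2, was 7.32, 7.46 and 7.37 in hypoxia, against 8.43, 7.68 and 8.28 in normoxia (difference -0.75).

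The CYP2 family was the largest, with 35 genes, of which 20 had lower and 14 higher means in hypoxia and 1 had equal means. Its median of -0.06 was 0.08 with equal array medians and -0.14 after quantile normalization, and 6 of its genes had an unadjusted p under 0.05, as did 6.66% of all genes. The subfamily with the largest differences was cyp2p, fish relatives of the mammalian CYP2J enzymes that oxidise arachidonic acid. All 5 members had lower hypoxia means, and their median of -0.82 ran from -1.15 to -0.45 with 1 array left out.

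cyp2p6 was 5.89, 6.65 and 7.05 in hypoxia, against 8.67, 7.06 and 8.60 in normoxia. It averaged 6.53 ± 0.59 in hypoxia and 8.11 ± 0.91 in normoxia (SD, n = 3 fish each), a log2 difference of -1.58 (SE 0.446, 95% interval -2.59 to -0.57, limma adjusted p = 0.72). The groups are 0.01 apart, between hypoxia 3 and normoxia 2, and the difference was -2.10 without normoxia 2. cyp2p10 was 5.67, 5.79 and 6.71 in hypoxia, against 7.00, 6.77 and 7.58 in normoxia, a difference of -1.06 (SE 0.316) with groups 0.06 apart. Its mean signal of 6.59 was dim, below the odorant receptor 90th percentile of 6.70. Hypoxia 3 was the highest hypoxia fish for both genes.

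The other cyp2p genes were dimmer than cyp2p10 and their groups overlapped. cyp2p7 was 4.37, 5.05 and 5.70 in hypoxia, against 6.85, 5.45 and 5.27 in normoxia (difference -0.82, and -0.32 without normoxia 1), cyp2p9 differed by -0.35 and cyp2p8 by -0.33. The 5 genes are neighbours in the RefSeq gene order, and how far the probes separate their transcripts was not tested.

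Outside cyp2p, cyp2ad6 had the smallest unadjusted p of all members, 0.0023 (limma). It was 6.83, 7.13 and 6.91 in hypoxia, against 8.15, 8.09 and 7.47 in normoxia, a log2 difference of -0.95 (SE 0.226, 95% interval -1.46 to -0.44, limma adjusted p = 0.72). All 3 hypoxia fish lay below all 3 normoxia fish, by 0.34 at the nearest. Its neighbours cyp2ad3 (-0.37) and cyp2ad2 (-0.24) had lower means with overlapping groups.

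The cyp2aa genes split. cyp2aa7 was 6.12, 5.87 and 5.87 in hypoxia, against 7.06, 6.44 and 6.70 in normoxia, a difference of -0.78, and cyp2aa6 was 6.91, 7.11 and 7.36 in hypoxia, against 8.11, 7.52 and 7.56 in normoxia, a difference of -0.60. Neither overlapped, and for both the adjusted p was 0.72 (limma). The mean signal of cyp2aa7 was dim, at 6.34. Of the other 7 genes of the subfamily, 4 had higher means, up to 0.36 for cyp2aa4 and cyp2aa8. cyp2aa4 was 5.98, 5.07 and 5.81 in hypoxia, against 4.24, 5.93 and 5.62 in normoxia, and cyp2aa8 was 6.87, 6.44 and 6.58 in hypoxia, against 5.34, 6.98 and 6.5 in normoxia. Normoxia 1 was the lowest fish for both, and without it their differences were -0.155 and -0.11.

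In the cyp2k subfamily 5 of 8 genes and in cyp2x 4 of 5 had higher means in hypoxia, with medians of 0.23 and 0.11 and no unadjusted p under 0.05. The smallest p among them was that of cyp2x10.2, with 4.85, 4.77 and 4.465 in hypoxia, against 4.50, 4.34 and 4.425 in normoxia, a difference of 0.27 at a dim signal. cyp2n13, of a subfamily close to cyp2p, was 5.60, 6.00 and 5.67 in hypoxia, against 6.68, 6.41 and 5.94 in normoxia, a difference of -0.59 (limma adjusted p = 0.72) with 1 hypoxia fish above the lowest normoxia fish. Its mean signal of 6.05 was dim. cyp2u1, in human an enzyme that hydroxylates arachidonic acid, was 7.30, 7.16 and 7.63 in hypoxia, against 8.04, 7.33 and 7.88 in normoxia (difference -0.39), with overlap.

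In the CYP3 and CYP4 families 1 gene stood out by level and difference. cyp4t8, the second brightest P450, was 8.88, 9.64 and 8.98 in hypoxia, against 10.30, 9.46 and 10.05 in normoxia. Its difference was -0.77 (SE 0.281, 95% interval -1.41 to -0.13, limma adjusted p = 0.72), and hypoxia 2 lay above normoxia 2. The other CYP4 genes, cyp4v2a (0.24), cyp4v2b (-0.17) and cyp4f3 (-0.16), differed less. Of the 5 CYP3 genes, 2 had lower and 3 higher means. cyp3c1 was 7.16, 7.47 and 7.49 in hypoxia, against 7.55, 7.53 and 8.09 in normoxia, without overlap and with a difference of -0.35 (adjusted p = 0.737). cyp3a65, a fish counterpart of the CYP3A drug-metabolising enzymes, was 6.78, 6.57 and 6.61 in hypoxia, against 5.47, 7.06 and 5.92 in normoxia, again with normoxia 1 lowest and normoxia 2 highest.

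cyp20a1, an enzyme without a known substrate, had a small difference, with groups that did not overlap on the deposited scale. It was 7.07, 6.87 and 7.29 in hypoxia, against 7.51, 7.57 and 7.43 in normoxia, 0.14 apart at the nearest, with means of 7.08 ± 0.21 in hypoxia and 7.50 ± 0.070 in normoxia (SD, n = 3 fish each). The log2 difference was -0.43 (SE 0.184, limma adjusted p = 0.72). It was -0.29 with equal array medians and -0.36 after quantile normalization (limma unadjusted p = 0.137 and 0.0643).

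**Figure D3:**
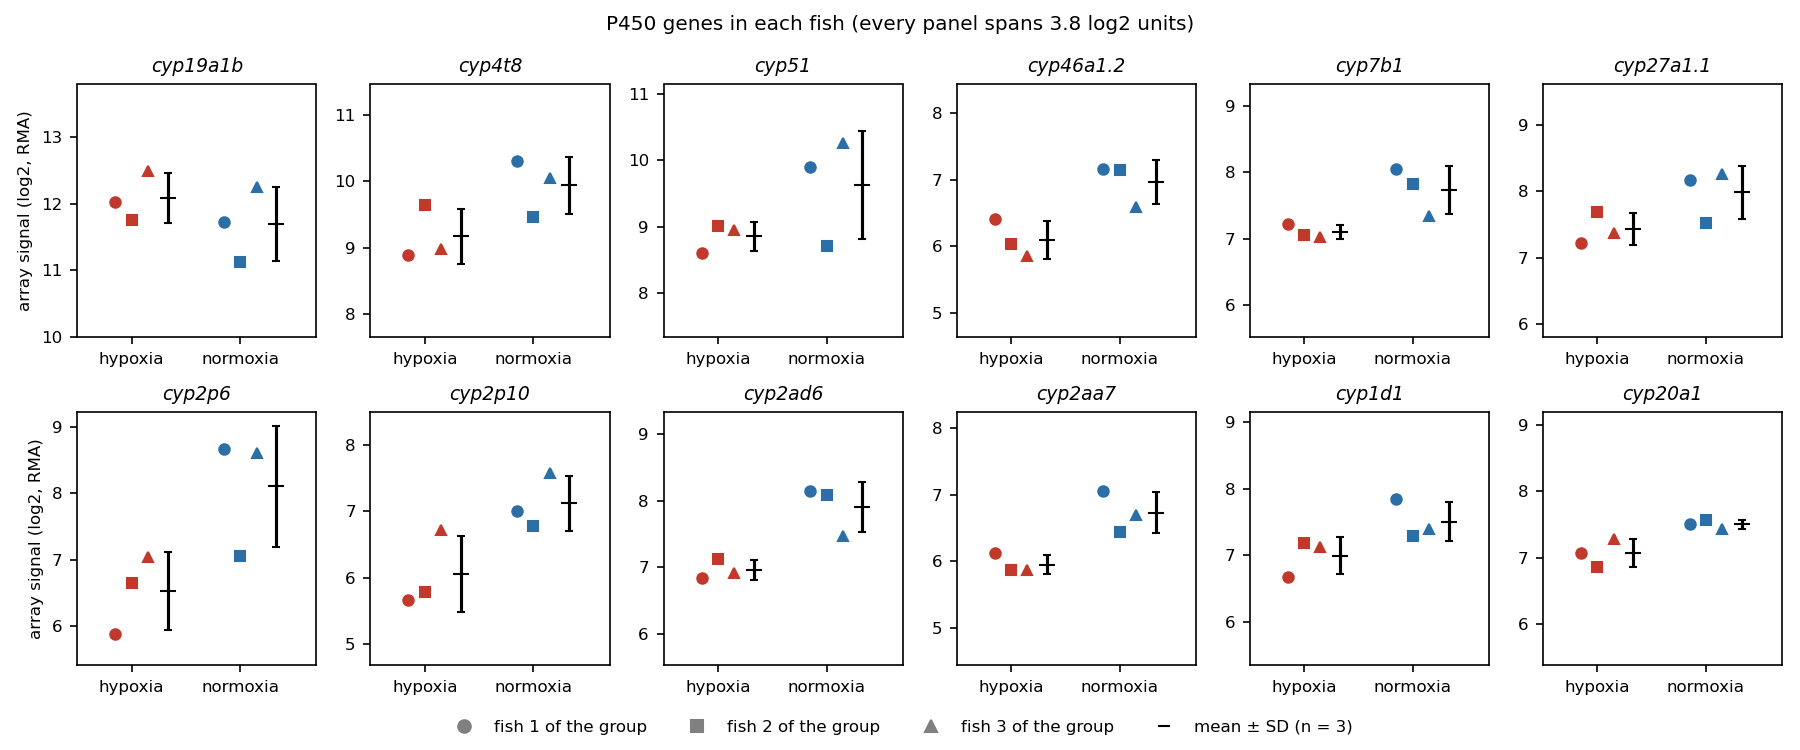
Array signal (log2, vertical axis) of 12 P450 genes in each fish, hypoxia left and normoxia right, with the mean ± SD of 3 fish beside the points. cyp19a1b overlaps widely, cyp51 and cyp4t8 have a normoxia fish among the hypoxia values, and cyp2ad6 and cyp46a1.2 have every hypoxia fish below every normoxia fish.

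The list named P450 electron donors holds cytochrome b5, ferredoxin and reductase genes, and the haem-binding P450 partners pgrmc1 and pgrmc2. Whether each of its genes serves P450 enzymes was not tested. Hypoxia means were lower for 10 of its 12 genes, with a median of -0.31. Of these, 5 had an unadjusted p under 0.05, all lower, as did 5.76% of all genes, and none passed the threshold. por, the P450 reductase gene, was not analysed here. The median was -0.17 with equal array medians and -0.10 after quantile normalization, with 7 of 12 genes lower in both. In 6 of the 12 the groups did not overlap, all lower, as in 9.02% of all genes. These were cyb5a, cyb5r1, cyb5r3, fdx1, fdx2 and pgrmc1. The median signal of the 12 genes was 7.73, a level at which the hypoxia mean was lower in 76.0% of all genes.

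cyb5a, the cytochrome b5 of the endoplasmic reticulum, was 8.22, 8.74 and 9.17 in hypoxia, against 9.51, 9.45 and 10.01 in normoxia, a difference of -0.95 (limma adjusted p = 0.72). cyb5r1, a cytochrome b5 reductase gene, was 8.60, 8.56 and 8.84 in hypoxia, against 9.26, 9.04 and 9.51 in normoxia (difference -0.60). fdx1, a mitochondrial ferredoxin gene, was 8.24, 8.50 and 8.39 in hypoxia, against 8.92, 8.71 and 8.87 in normoxia (difference -0.46). Its reductase gene fdxr differed by -0.03 with overlap. fdx1b, the steroidogenic ferredoxin of zebrafish, was dim and differed by 0.51, with overlap.

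Haem synthesis, which supplies the cofactor, had lower means for 9 of 11 genes, a median of -0.33 and no unadjusted p under 0.05. With equal array medians 8 of the 11 were lower. The median signal of the list was 7.16, a level at which the hypoxia mean was lower in 55.8% of all genes. alas1, the gene of its rate-limiting first step outside red cells, was 9.23, 9.32 and 9.67 in hypoxia, against 10.09, 9.20 and 10.03 in normoxia. The median of this list was -0.19 with equal array medians and -0.15 after quantile normalization.

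Among the 26 partners in steroid hormone action, 14 had lower and 12 higher means, and their median of -0.05 was 0.09 with equal array medians and 0.07 after quantile normalization. tspo, the gene of an outer mitochondrial membrane protein that binds cholesterol, was 7.82, 8.66 and 8.65 in hypoxia, against 9.38, 9.32 and 9.22 in normoxia, a difference of -0.93 (limma adjusted p = 0.72). hsd20b2, a hydroxysteroid dehydrogenase of cortisol breakdown in zebrafish, was 8.54, 8.78 and 9.69 in hypoxia, against 7.99, 8.65 and 8.05 in normoxia, a difference of 0.77 (adjusted p = 0.72). In hsd20b2 hypoxia 1 lies below normoxia 2. Of 8 measured markers of microglia, which make tspo, 7 had lower means in hypoxia (5 of 8 with either rescaling), and their summed signal ran from 11.04 to 11.07 in hypoxia and from 10.97 to 12.05 in normoxia (log2). Their median signal was 8.22, a level at which the hypoxia mean was lower in 76.0% of all genes. The part of microglial RNA in the difference of tspo was not tested.

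The 16 xenobiotic nuclear receptors, 3 vitamin D partners and 10 eicosanoid partners had no member past the threshold, with medians of 0.0050, 0.23 and -0.05. ephx1, the microsomal epoxide hydrolase gene, was the 1 member of these lists with an unadjusted p under 0.05, with 7.95, 8.38 and 8.97 in hypoxia, against 9.23, 8.83 and 9.27 in normoxia (difference -0.68, limma adjusted p = 0.72).

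**Figure D4:**
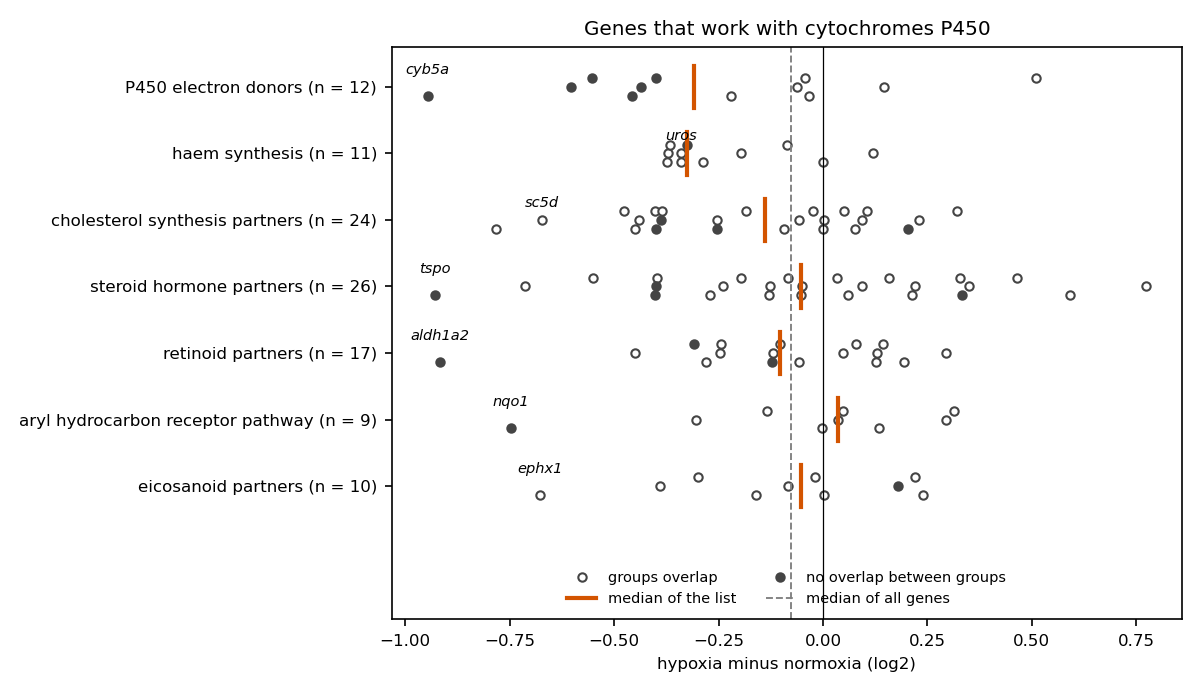
Hypoxia minus normoxia (log2, horizontal axis) for genes listed as partners of cytochromes P450, in 7 lists. Filled points mark genes whose groups do not overlap, and a bar gives each list's median. The list named P450 electron donors, which includes pgrmc1 and pgrmc2, has a median of -0.31 and 6 filled points, all below 0, and the steroid hormone partners spread to both sides of 0.

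Many P450 genes varied more between fish of the same group than most genes of like signal. The pooled within-group SD was above the median of all genes in the same bin of 0.5 log2 units for 55 of 75 members (73.3%, where 50% of all genes are), and above the 90th percentile of its bin for 16 (21.3%, where 10% are). The largest SDs were those of cyp2p7 (0.77), cyp2p6 (0.77), cyp2aa4 (0.72), cyp1b1 (0.68), cyp2aa8 (0.62) and cyp51 (0.59). cyp19a1b, at 0.48, was above the 90th percentile of 0.39 for the 62 genes of its bin. The steadiest member was cyp2k18, with an SD of 0.12 and a range of 0.34 over the 6 fish. The SD was larger in normoxia than in hypoxia for 56 members (74.7%), close to the 70.9% of all genes. Normoxia 1 was the lowest array for 38.7% of members and normoxia 2 the highest for 30.7%, against 19.9% and 17.5% of all genes. The part of these 2 arrays in the spread of the members was not tested.

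**Figure D5:**
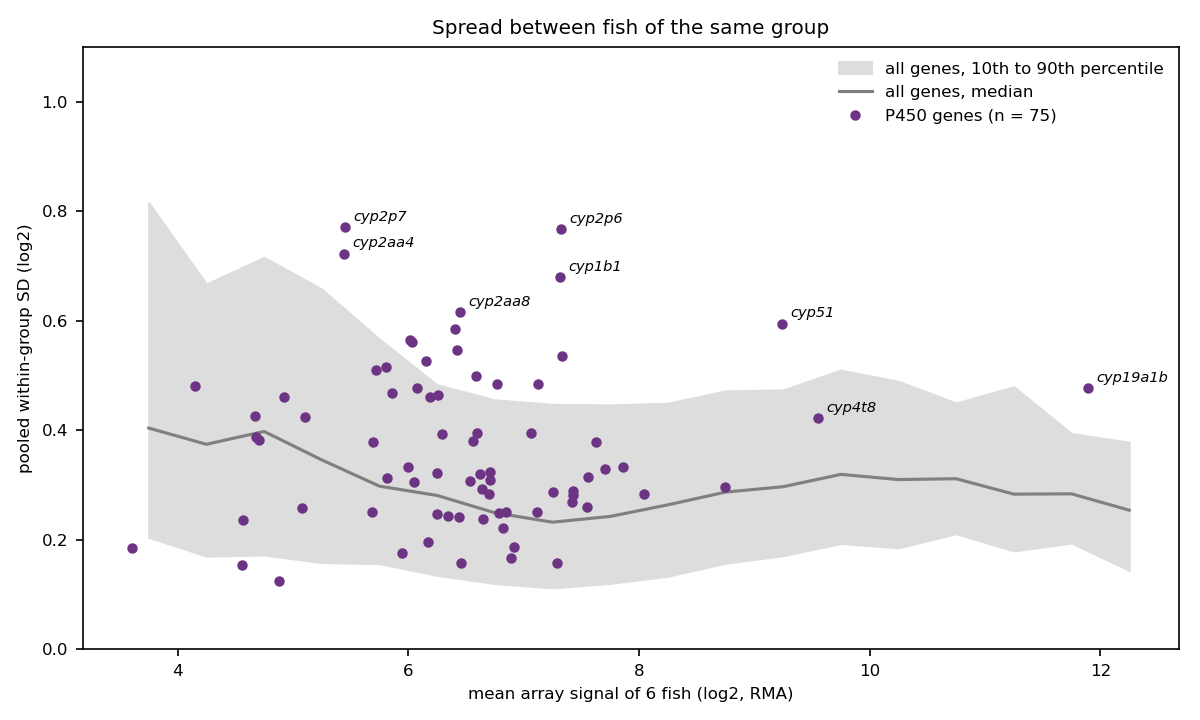
Pooled within-group SD (log2, vertical axis) against mean array signal (log2, horizontal axis) for the 75 P450 genes, with the median and the 10th to 90th percentile band of all genes in bins of 0.5. Several members lie above the band, among them cyp2p6 at 0.77, cyp1b1 at 0.68, cyp51 at 0.59 and cyp19a1b at 0.48.

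The 4 P450 genes with 2 rows show how far probes of a gene can part. The rows of cyp2y3 differed by 0.57 and -0.37 and those of cyp27a1.2 by -0.15 and 0.69, so that the sign depended on the row. The rows of cyp2aa12 (0.30 and 0.40) and cyp2x10.2 (0.23 and 0.32) had the same sign.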

How the data were processed

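RNA of single brains was measured on 6 arrays, 1 per fish. Per the series' design text, the authors applied RMA background correction with quantile normalization. Quantile normalization over the deposited rows would give every array the same distribution, and the deposited arrays differ. Their medians over all rows ran from 6.28 (normoxia 1) to 6.6 (normoxia 2), and their SDs over genes from 1.25 (hypoxia 1) to 1.60 (normoxia 1). The reason was not tested. Affymetrix Expression Console is among the tools in the submitters' processing notes, and the sources used here give neither its version nor the probe set level and filters. The deposited log2 values, a scale judged from their range of 1.62 to 14.34, carry 2 decimals.

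Groups came from the sample titles. Rows that name the same single gene were averaged, with symbols updated through the Entrez identifier (74 of 75 P450 genes matched). Levels are log2 signals, and differences are hypoxia minus normoxia. lmFit and eBayes of limma 3.58.1 (R 4.3.3) were run on all 19260 genes and 6 arrays without covariates, and p-values were adjusted by Benjamini-Hochberg over all of them, with 0.05 as the threshold. Intervals are 95% from the moderated fit. Lists are given by counts and medians, with no test. Arrays give no molecule counts, and 3 fish per group limit precision. Simulated data served to test the procedure for this comparison over 19260 genes: of 100 genes shifted by 1 log2 unit 29 were found, of 100 shifted by 2 log2 units 92, and there were 5 false calls. The simulated noise was drawn separately for each gene. Deviations that many genes of an array share were not simulated, so these figures need not hold for the real arrays.

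The members, lists and naming rule were chosen with earlier results of these data known. All members could be named. Those given in full were the aromatases, the 12 brightest, the 6 with the smallest p in each direction, the 6 with the largest spread and, per role group, the brightest and that with the smallest p. Partner genes came from the 3 with the smallest p per list. cyb5r3, fdx2, fdxr, fdx1b, pgrmc1, esr1, esr2a, esr2b, ahr2, hmgcra, tm7sf2, ebp, alas1 and gfap were added after their values were seen. So were dhcr7, fdft1, fdps, sqlea and lbr. As alternatives, each array was left out, arrays were set to equal medians or quantile-normalized, dim genes were filtered out, and the brightest row, single rows, an intensity trend, robust moderation and a replicate block were used. Leaving out the third array of each group was added later.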

Additional observations from a re-analysis of the deposited data

How the results depend on the processing

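No P450 gene passed the threshold under any of the 15 alternatives, and the smallest adjusted p of a member was 0.0749 (limma), for cyp2p6 without normoxia 2. With 1 array left out, the number of members at an unadjusted p under 0.05 ran from 5 to 27, and the number without overlap from 13 to 35. The number with a lower mean ran from 33 to 46 and the median of P450 genes from -0.06 to 0.07. With fewer fish groups overlap less by construction. With 1 array other than normoxia 2 left out, 15.6% to 24.4% of all genes did not overlap. Without normoxia 2 the share was larger, at 43.5% of all genes and 46.7% of P450 genes. The cause of this larger share was not tested. Leaving out hypoxia 3 and normoxia 3 together, which was added later, gave 20 members without overlap (26.7%, against 30.7% of all genes). At an unadjusted p under 0.05 the split of 12 lower and 0 higher became 8 lower and 1 higher with equal array medians, and 9 lower and 2 higher with quantile-normalized gene values.

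Equal array medians moved the median of P450 genes to 0.14. The median with 1 array left out ran from -0.0283 to 0.22 for vitamin D, from -0.24 to 0.0067 for the CYP2 family and from -0.11 to 0.31 for the CYP3 family. Among the genes given in full, the sign turned with 1 array left out for cyp27a3 (-0.39 to 0.0117), cyp24a1 (-0.10 to 0.37), cyp27a2 (-0.43 to 0.0217), cyp2aa4 (-0.155 to 0.69), cyp1b1 (-0.76 to 0.08) and cyp2aa8 (-0.11 to 0.71), and cyp24a1 was -0.13 without the third array of each group. The cause was not tested.

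With the replicate number as a block, 11 members (10 lower, 1 higher) had an unadjusted p under 0.05, or 14.7% against 5.76% of all genes, and none passed. The numbers share only a number: deviations of same-numbered fish correlated at -0.34, 0.10 and 0.20 over all genes.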

Other observations

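Rows that name several genes were left out of the comparison, and 6 of them include a P450. The row shared by cyp1a, the classical target of the aryl hydrocarbon receptor, and mpx had values of 6.69, 6.85 and 7.05 in hypoxia and 6.17, 6.74 and 6.37 in normoxia, a log2 difference of 0.44 with overlap. The row of cyp27c1 and ercc3 was steady, with means of 7.76 and 7.78 in hypoxia and normoxia. The row that lists cyp2v1 under 2 identifiers differed by -0.38, that of cyp2aa3 by 0.30, that of cyp8b1.1 and cyp8b1.2 by 0.30 and that of cyp2k8 by 0.39. Which of the genes named by such a row gives its signal was not tested.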
